A study of Danio rerio with 6 samples.

Results

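The genes described here encode voltage-gated sodium and calcium channels and the subunits that travel with them. They were taken as all genes whose symbol begins with cacna, cacnb or cacng, or with scn and a digit, in any letter case, and whose counts summed to at least 30 over the 6 libraries. Of the 32520 genes in the deposited tables, 64 carried such a symbol and 47 reached the sum. The lowest sum inside the limit was 34 (CACNA2D4), followed by cacna1ib and cacnb2b at 36 each. The highest sums outside it were 25 each for cacna1db and cacna1sb and 24 for cacna1sa. Where a symbol is printed in capitals, the table of names gives the symbol of an orthologue and no single zebrafish name could be assigned.

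Sodium channels carry the rising phase of the action potential. Their pore is a single large alpha subunit, accompanied by small beta subunits that span the membrane and carry an immunoglobulin-like fold. Calcium channels have a pore of similar build, called alpha1, which falls into the L type, the P/Q, N and R types of nerve terminals, and the low-voltage-activated T type. A beta subunit in the cytoplasm and an alpha2delta subunit on the outer face bring most of these pores to the membrane, while many genes named gamma encode partners of AMPA-type glutamate receptors. In young motor neurons these channels bear on firing and on calcium entry.

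RNA was measured in cells sorted for Kaede from the dissected posterior hindbrain of zebrafish embryos with the genotype Tg(isl1:Kaede), a transgene in which the regulatory sequence of the gene isl1 drives a fluorescent protein in cranial motor neurons, those of the vagus nerve among them. All embryos were kept in 0.2 mM PTU, a blocker of pigment formation, and were collected at 38 hpf (hours post fertilization). The treated group received 50 nM retinoic acid (RA) in DMSO from 24 hpf, and the control group received the solvent DMSO alone. There were 3 libraries per group, DMSO replicates 1, 4 and 10 and RA replicates 6, 9 and 12, each made from 4500 to 10000 sorted cells. The labels do not say whether they came from separate clutches, so p-values measure the spread between these samples, which may be technical.

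Libraries held 15971653 to 23411427 counted fragments, and the channel genes took 0.0729% to 0.0944% of them. The labelled cell type was checked against 13 motor neuron genes found in the data, which are not all particular to branchiomotor neurons. They summed to 6989 to 9206 CPM (counts divided by the TMM-scaled library total in units of 1e+06) in DMSO. In RA they summed to 5121 to 6313 CPM. Of the 13 genes, isl1b alone was near 0 in both groups. Markers of cranial sensory neurons summed to 929.1 to 1351 CPM over all libraries. Most of this sum came from prph alone, at 804.3 to 1205 CPM, so it mainly gives the level of that gene. Markers of progenitors and glia summed to 2416 to 4036 CPM. Markers of other hindbrain neurons ranged over 339.3 to 651.5 CPM, those of epidermis over 166.0 to 910.7 and those of neural crest and pigment cells over 216.0 to 501.5. Skeletal muscle markers, 10 genes, differed widely among libraries of the same group. The DMSO libraries held 245.2, 712.7 and 34.3 CPM of them, and the RA libraries 1545, 47.0 and 50.1. Heart muscle markers did not exceed 0.195 CPM, hair cell markers 49.8 CPM, and erythrocyte markers 0.732 CPM outside DMSO replicate 10 (65.9 CPM). The 7 markers of endothelium and microglia summed to 98.2 to 118.1 CPM in DMSO against 43.4 to 58.1 in RA. This difference lay in kdrl (log2 fold change -2.73, adjusted edgeR p-value 0.0197), while the other 6 summed to 20.5 to 30.4 CPM in DMSO and to 32.9 to 44.0 in RA. Of the 12 tested motor neuron markers 1 passed an adjusted edgeR p-value of 0.05, where 0.799% of all tested genes did. This was tbx20, lower in RA (-1.65, adjusted edgeR p-value 0.00482). Without passing, isl1a (-0.67), phox2a (-1.01), phox2bb (-0.50) and lhx4 (-1.03) lay lower in every RA library than in any DMSO library. The genes mnx1 (1.68) and cadm3 (0.23) lay higher in every RA library, and the other tested markers overlapped. Of the 13 tested markers of progenitors and glia 2 passed, gfap (1.00, adjusted edgeR p-value 0.0352) and olig2 (2.22, adjusted edgeR p-value 0.0285), both higher in RA. The rest had log2 fold changes of both signs, such as fabp7a (-0.54) and her4.2 (0.50). The sum of the list overlapped between the groups, at 3159 to 3381 CPM in DMSO and 2416 to 4036 in RA. The part of these markers in the differences below was not tested. In sorted pools such as these, fewer cells of a type and less RNA per cell cannot be told apart.

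Levels between genes are given as CPM per kilobase of annotated exon, in DMSO first. The subunits that accompany the pores were the most abundant channel transcripts. The calcium channel beta gene cacnb4b stood highest, followed by cacnb1 and by the sodium channel beta genes scn3b and scn1ba. Only 6 of the 47 genes reached 10 CPM per kilobase, and 21 lay below 1. The median was 1.89 CPM per kilobase. Pore genes had 5799 to 8718 bases of annotated exon, apart from cacna1ib with 3039, and the beta subunits of both channels 1190 to 4511. Coverage along transcripts was not analysed here, so its part in the gap between pores and small subunits was not tested.

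**Figure D1:**
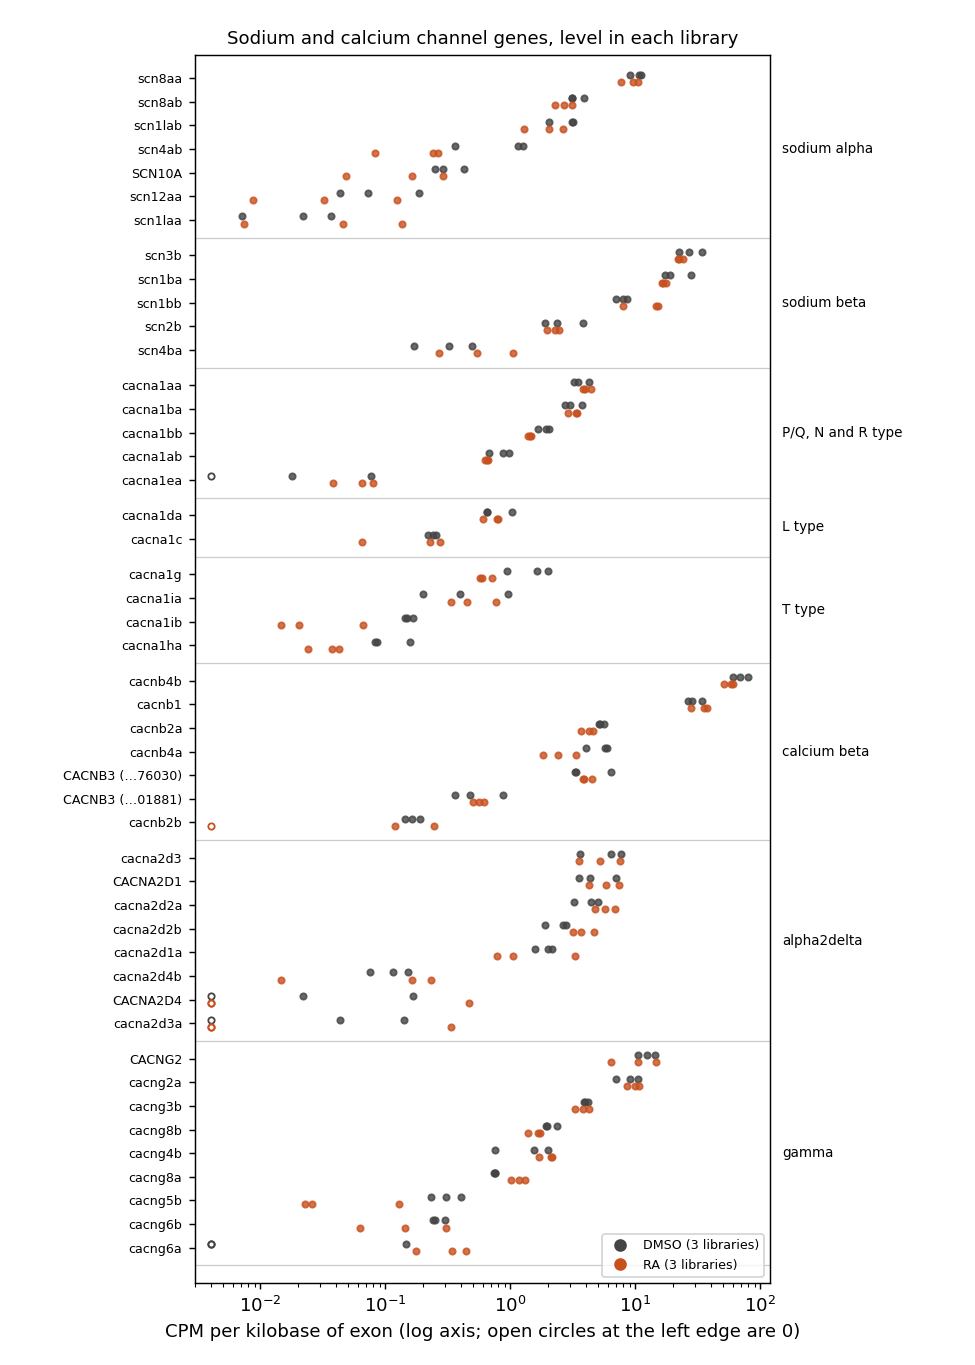
Level of each of the 47 channel genes in CPM per kilobase of exon (log axis), with a point per library for DMSO and RA and genes ordered by DMSO mean within each class. The beta genes cacnb4b and cacnb1 and the sodium beta genes scn3b and scn1ba lie at the right, and open circles mark values of 0.

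Among sodium channel pores, scn8aa (ENSDARG00000005775, GRCz11 chromosome 23, 27251626 to 27345425) was the most abundant. It encodes a channel whose mammalian counterpart is concentrated at the axon initial segment and at nodes. Its level was 11.1, 9.02 and 10.6 CPM per kilobase in DMSO replicates 1, 4 and 10, and 9.65, 7.64 and 10.6 in RA replicates 6, 9 and 12, so the groups overlapped. The gene took 57.9% ± 5.75 of the summed sodium pore level in DMSO (SD, n = 3). Its duplicate scn8ab had 3.89, 3.10 and 3.12 CPM per kilobase in DMSO and 3.11, 2.28 and 2.71 in RA. Gene scn1lab, whose loss causes seizures in zebrafish larvae, had 3.18, 3.11 and 2.05 in DMSO and 2.61, 2.02 and 1.29 in RA. The DMSO ranges of these 2 genes overlapped, as did the groups of each, while scn8aa stood apart from both. The muscle sodium channel gene scn4ab followed at 0.928 ± 0.493, and SCN10A, named for a channel of mammalian sensory neurons, at 0.320 ± 0.0920. The genes scn12aa and scn1laa were near the limit of detection, at 0.10 and 0.0220. The other muscle channel gene, scn4aa, had 1 count in all 6 libraries together.

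The sodium channel beta genes were led by scn3b (chromosome 15, 22133839 to 22147860). Its level was 34.2, 22.4 and 27.0 CPM per kilobase in DMSO and 22, 22.4 and 24.1 in RA. Gene scn1ba had 27.9, 17.3 and 18.8 in DMSO and 16.7, 16.4 and 17.6 in RA. The DMSO ranges of these 2 genes overlapped, so their order is not set, and in both DMSO replicate 1 was the highest library. Gene scn1bb lay lower at 7.83 ± 0.765 in DMSO, scn2b at 2.69 ± 0.996 and scn4ba at 0.330 ± 0.163, each with a DMSO range below that of the gene before it. Summed over the class, beta subunits stood at 3.36 ± 0.354 times the level of the pores in DMSO and 3.84 ± 0.268 times in RA.

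Of the calcium channel pores, the presynaptic types prevailed. The P/Q, N and R genes made up 74.7% ± 4.18 of the summed alpha1 level in DMSO, the T type 17.5% ± 4.15 and the L type 7.82% ± 0.300. In RA these shares were 81.5% ± 1.35, 10.6% ± 2.92 and 7.91% ± 1.58. Only that of the P/Q, N and R genes did not overlap between the groups, being higher in RA, and the shares were not tested. Gene cacna1aa, a pore of the P/Q type that triggers transmitter release (chromosome 3, 33773156 to 33901483), had 4.24, 3.48 and 3.24 CPM per kilobase in DMSO and 4.42, 3.78 and 3.97 in RA. Gene cacna1ba, a pore of the N type (chromosome 5, 29296396 to 29488245), had 3.73, 2.76 and 2.99 in DMSO and 3.37, 2.91 and 3.43 in RA. In both the groups overlapped, and so did the DMSO ranges of the genes. Their duplicates cacna1bb and cacna1ab were lower at 1.89 ± 0.194 and 0.841 ± 0.156 in DMSO. The R type gene cacna1ea had 11, 3 and 0 counts in DMSO and 9, 6 and 9 in RA, and cacna1eb 10 counts in all.

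The L type was represented by cacna1da, known for its roles in hair cells and in pacemaking, at 1.02, 0.645 and 0.646 CPM per kilobase in DMSO and 0.784, 0.609 and 0.796 in RA. Gene cacna1c, the pore of the heart that is also used in neurons, was below it in every DMSO library at 0.221, 0.252 and 0.242, with 0.273, 0.0651 and 0.229 in RA. The remaining 5 L type genes, those of skeletal muscle (cacna1sa, cacna1sb), of the retina (CACNA1F, cacna1fa) and cacna1db, stayed under 30 counts. Gene cacna1db has only 802 bases of annotated exon, against 6674 for cacna1da. Its 25 counts therefore cannot be set beside those of the longer genes. Among T type pores, which open near the resting potential, cacna1g was highest at 1.52 ± 0.534 in DMSO. Gene cacna1ia overlapped it with 0.963, 0.393 and 0.199 in DMSO and 0.448, 0.770 and 0.333 in RA. Genes cacna1ib and cacna1ha were 0.153 and 0.108.

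Calcium channel beta subunits were the most abundant class of all, with a summed level 8.97 ± 0.701 times that of the alpha1 pores in DMSO and 8.81 ± 0.427 times in RA. Gene cacnb4b (chromosome 6, 14086688 to 14146979), a member of the beta group best known from brain, had 79.7, 60.5 and 68.3 CPM per kilobase in DMSO and 51.2, 58.1 and 60.5 in RA. This placed it at the 92.8th percentile of all tested genes by DMSO level. The lowest DMSO and the highest RA library nearly coincided. Gene cacnb1 (chromosome 3, 16157120 to 16227683) is known for its role in skeletal muscle contraction in zebrafish. It had 33.9, 26.3 and 28.3 in DMSO and 37.7, 28.1 and 35.2 in RA, overlapping groups. Muscle markers were highest in RA replicate 6 and DMSO replicate 4, where cacnb1 was highest and lowest, and their part in its level was not tested. Together cacnb4b and cacnb1 made up 86.2% ± 3.61 of the class in DMSO. Genes cacnb2a and cacnb4a followed at 5.31 ± 0.248 and 5.23 ± 1.04, with overlapping ranges. The 2 genes listed as CACNB3 on chromosome 23 were at 4.36 ± 1.78 (ENSDARG00000076030) and 0.567 ± 0.269 (ENSDARG00000001881), and cacnb2b at 0.165 ± 0.0217.

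The alpha2delta class had no single leader. Gene cacna2d3 (chromosome 11, 36688794 to 36765834) had 7.63, 6.35 and 3.63 CPM per kilobase in DMSO and 3.57, 7.47 and 5.20 in RA. The gene listed as CACNA2D1, orthologue of a target of gabapentin in mammals, had 7.03, 3.57 and 4.37 in DMSO and 4.28, 7.46 and 5.83 in RA. Gene cacna2d2a had 5.00, 4.40 and 3.22 in DMSO and 5.75, 4.76 and 6.92 in RA. The ranges of neighbouring genes in this order overlapped in DMSO, and without DMSO replicate 4 CACNA2D1 was the highest. Next came cacna2d2b at 2.43 ± 0.471 and cacna2d1a at 1.91 ± 0.292, and cacna2d4b, CACNA2D4 and cacna2d3a lay at 0.113 or below. Before division by length, cacna2d2b was above cacna2d2a in DMSO, at a mean of 8.96 against 7.02 CPM. Their annotated exon lengths were 3680 and 1668 bases.

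In the gamma class, the genes highest in DMSO belonged to the group that escorts AMPA receptors. The gene listed as CACNG2 on scaffold KN149779.1, orthologue of stargazin, had 10.6, 12.4 and 14.5 CPM per kilobase in DMSO and 10.6, 6.38 and 14.7 in RA. Gene cacng2a had 10.6, 7.06 and 9.08 in DMSO and 8.59, 10.7 and 9.92 in RA, and cacng3b 3.89, 4.21 and 3.95 in DMSO and 3.26, 3.80 and 4.24 in RA. Groups overlapped for all 3. Exons of CACNG2 overlap those of ift27 and exons of cacng2a those of si:dkey-151m15.7, in both cases on the opposite strand. Strand was not used in the counting, so fragments from a shared stretch cannot be told apart by gene. As no option to count a fragment in several genes was seen, such fragments may be missing from these values, which are uncertain. Genes cacng8b, cacng4b and cacng8a lay at 0.751 to 2.08, and cacng5b, cacng6b and cacng6a at 0.312 or below. The muscle genes cacng1a and cacng1b were among 7 gamma genes with under 30 counts.

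**Figure D2:**
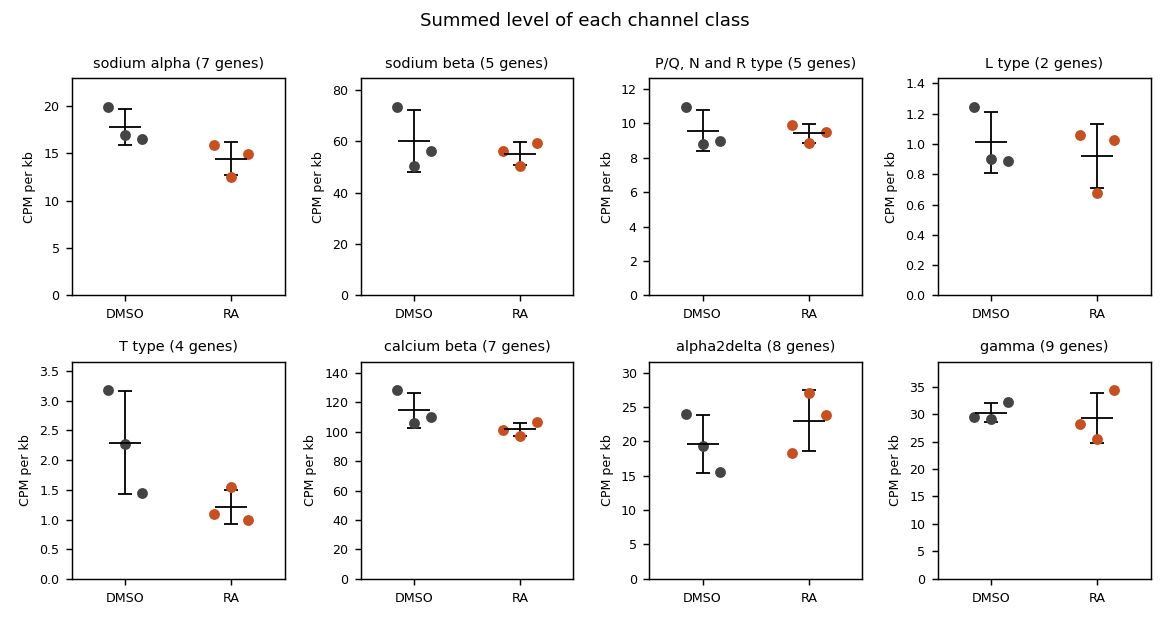
Summed level of the genes of each class in CPM per kilobase, with a point per library, a line at the group mean and bars of 1 SD (n = 3). The sodium pore total lies lower in all 3 RA libraries than in any DMSO library, and the other 7 classes overlap. Among all tested genes, taken singly, 15.5% did not overlap.

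RA was compared with DMSO to ask whether channel expression differs in cells exposed to it. With edgeR's quasi-likelihood test and Benjamini-Hochberg adjustment over 17270 genes, none of the 37 channel genes with enough counts to be tested reached an adjusted p under 0.05, where 0.799% of all tested genes did. At an unadjusted p-value under 0.05 there were 6 channel genes (16.2%), against 10.2% of all tested genes. DESeq2, as an alternative, called 3 channel genes, all lower in RA, where it called 3.86% of all genes it adjusted and 1.77% as lower. These were scn4ab, cacna1g and cacnb4a. No channel gene passed with limma-voom, where 0.625% of all genes did, or in edgeR with other scalings (0.811%, 0.793% and 0.799% of all genes), with a robust fit (0.898%), with no filter on low counts (1.02%) or among genes of at least 10 CPM (1.22%). With DMSO replicate 1, 4 or 10 left out, none passed either, where 0.0561%, 0.0505% and 0.101% of all genes did, and with RA replicate 6, 9 or 12 left out none passed beside 0.405%, 1.83% and 0.342%. By direction, 25 of the 37 had a log2 fold change below 0 (67.6%, against 47.4% of all tested genes), with a median of -0.14, against 0.02 over all genes. Groups did not overlap for 9 channel genes lower in RA and 2 higher, which is 24.3% and 5.41%, against 7.7% and 7.78% of all tested genes. The 37 passed a filter on low counts, and the other 10 were not tested.

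The precision set what could be seen. For 20 of the 37 tested genes the 95% interval of the log2 fold change lay between -1 and 1, so that a change past a doubling or a halving lay outside it. The most abundant pores were among these. The interval was -0.52 to 0.23 for scn8aa, -0.24 to 0.55 for cacna1aa and -0.39 to 0.45 for cacna1ba. For the beta genes cacnb4b, cacnb1 and scn3b it was -0.61 to 0.02, -0.18 to 0.56 and -0.71 to 0.14. An adjusted p-value above 0.05 does not show that these genes were alike in both groups.

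**Figure D3:**
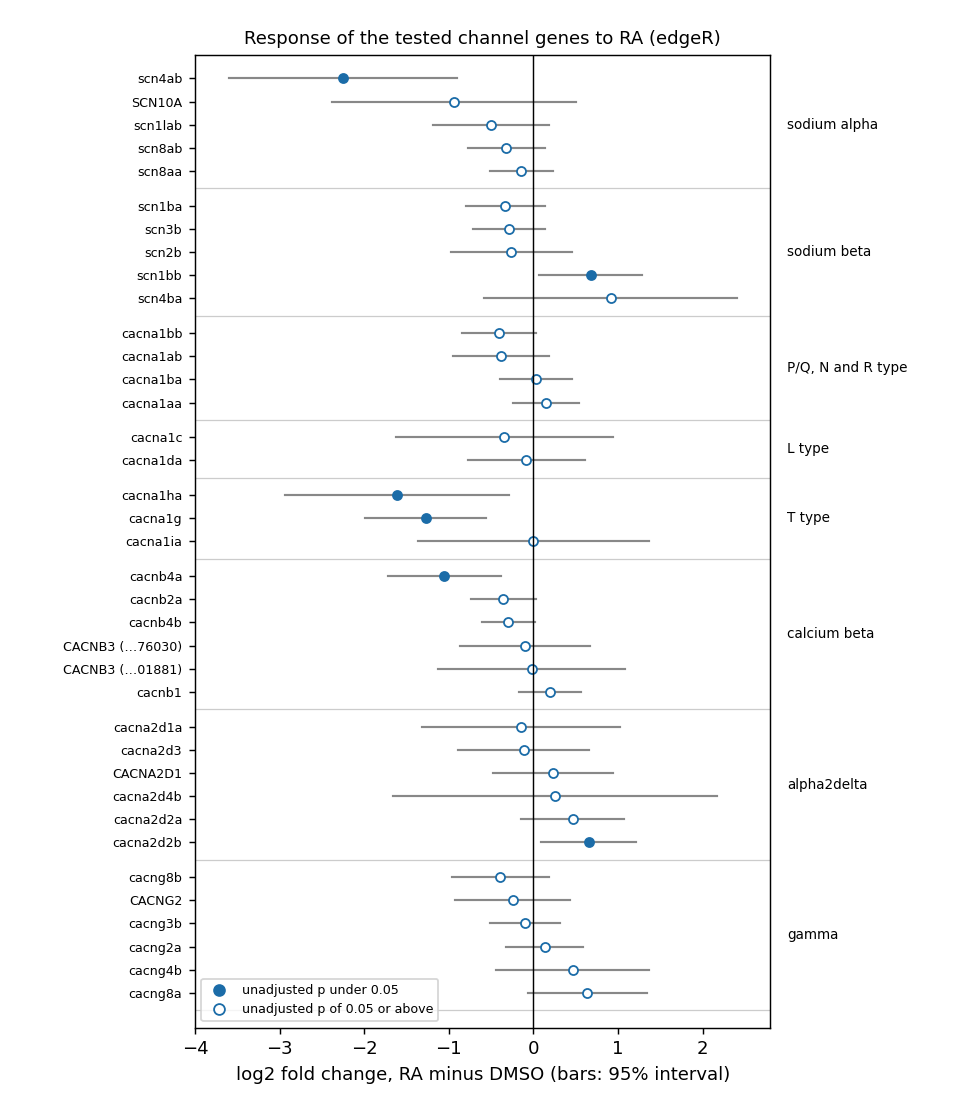
Log2 fold change in RA against DMSO of the 37 tested channel genes with its 95% interval, by class. Filled points have an unadjusted p-value under 0.05, namely scn4ab, scn1bb, cacna1ha, cacna1g, cacnb4a and cacna2d2b, and no gene passed after adjustment.

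The smallest p-value of a channel gene was that of cacna1g, the T type pore (ENSDARG00000089913, chromosome 12, 27704015 to 28073562). It had 1.99, 1.62 and 0.938 CPM per kilobase in DMSO and 0.594, 0.714 and 0.575 in RA, so every RA library lay below every DMSO library. Its log2 fold change was -1.27 (SE 0.31, 95% interval -1.99 to -0.55, adjusted edgeR p-value 0.148). With DESeq2 it passed, at -1.28 (SE 0.34, adjusted p-value 0.00788). A second T type gene, cacna1ha, had 14, 17 and 26 counts in DMSO and 5, 8 and 4 in RA, again without overlap. Its exons overlap those of ENSDARG00000097913 on the opposite strand, a gene with 0 counts in all libraries. The part of this overlap was not tested, and cacna1ha is uncertain because its counts were few. Its log2 fold change was -1.61 (SE 0.58, adjusted edgeR p-value 0.358). The third tested gene of the type, cacna1ia, had overlapping groups and a log2 fold change of -0.00022 with a 95% interval of -1.36 to 1.36. The fourth, cacna1ib, had 9, 12 and 9 counts in DMSO and 1, 1 and 4 in RA and was too low to be tested. Summed over the 4 genes, the T type stood at 3.18, 2.27 and 1.44 CPM per kilobase in DMSO and 1.1, 1.54 and 0.999 in RA, ranges that overlapped through RA replicate 9 and DMSO replicate 10.

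The largest log2 fold change of a tested channel gene was that of scn4ab (ENSDARG00000034588, chromosome 3, 22242269 to 22316844), a sodium pore known from muscle. It had 1.27, 1.16 and 0.363 CPM per kilobase in DMSO and 0.264, 0.239 and 0.0820 in RA. The groups did not overlap, though DMSO replicate 10 was close to RA replicate 6. The log2 fold change was -2.25 (SE 0.59, adjusted edgeR p-value 0.171), and -2.26 with DESeq2 (SE 0.57, adjusted p-value 0.00388). Muscle markers summed to 245.2, 712.7 and 34.3 CPM in the same DMSO libraries and to 1545, 47.0 and 50.1 in those of RA. Of these markers myod1 (-1.37) and myog (-1.77) had a log2 fold change below 0. The other tested muscle markers lay above 0, and none passed in edgeR. The part of muscle markers in the scn4ab difference was not tested. An exon of scn4ab overlaps the gene myl4 on the opposite strand. That gene had 18, 14 and 23 counts in DMSO and 39, 25 and 37 in RA, and the part of the overlap in the counts of scn4ab was not tested. All 5 tested sodium pores had a log2 fold change below 0, with a median of -0.50. Their summed level, with the untested scn12aa and scn1laa, was 19.9, 16.9 and 16.5 CPM per kilobase in DMSO. In RA it was 15.9, 12.5 and 14.9, without overlap but with a narrow gap. Among all tested genes, taken singly, 15.5% did not overlap in either direction, and the sum was not tested. Among the more abundant pores, scn1lab was at -0.50 (SE 0.30) and scn8ab at -0.32 (SE 0.20), neither past the threshold.

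Of the beta subunits, cacnb4a (ENSDARG00000009738, chromosome 9, 38074082 to 38130085) differed most. It had 5.68, 5.98 and 4.05 CPM per kilobase in DMSO and 3.35, 2.42 and 1.82 in RA, groups that did not overlap. The log2 fold change was -1.05 (SE 0.29, 95% interval -1.72 to -0.39, adjusted edgeR p-value 0.193), and -1.06 with DESeq2 (SE 0.31, adjusted p-value 0.0247). Gene cacnb2a also lay lower in every RA library, at 5.10, 5.58 and 5.26 in DMSO and 4.55, 4.25 and 3.66 in RA, a log2 fold change of -0.36 (SE 0.17). Because cacnb4b and cacnb1 hold most of the class, its sum overlapped between the groups, at 114.6 ± 12.1 CPM per kilobase in DMSO and 101.7 ± 4.60 in RA.

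The 4 highest log2 fold changes among tested channel genes were those of scn4ba, scn1bb, cacna2d2b and cacng8a. Gene scn4ba, a sodium channel beta subunit of low level, had the highest at 0.92 (SE 0.65), with overlapping groups. Gene scn1bb (ENSDARG00000105003, chromosome 19, 206835 to 212478) had 7.03, 8.56 and 7.90 CPM per kilobase in DMSO and 15.1, 7.92 and 14.6 in RA. Replicates 6 and 12 of RA were above all DMSO libraries, while RA replicate 9 lay inside their range. The log2 fold change was 0.68 (SE 0.26, adjusted edgeR p-value 0.422). Over 14 alternatives it ran from 0.52 to 0.92, the highest without RA replicate 9, the library inside the DMSO range. Adjusted p-values of these fits (edgeR, DESeq2 or limma-voom) ran from 0.0602 to 0.742. Gene cacna2d2b (ENSDARG00000078169, chromosome 22, 9472814 to 9513061), an alpha2delta subunit, had 1.90, 2.77 and 2.63 in DMSO and 3.65, 3.17 and 4.66 in RA without overlap. Its log2 fold change was 0.65 (SE 0.25, adjusted edgeR p-value 0.396). Gene cacng8a had 0.752, 0.744 and 0.756 in DMSO and 1.18, 1.02 and 1.32 in RA, also without overlap, and a log2 fold change of 0.64 (SE 0.31, adjusted edgeR p-value 0.550).

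**Figure D4:**
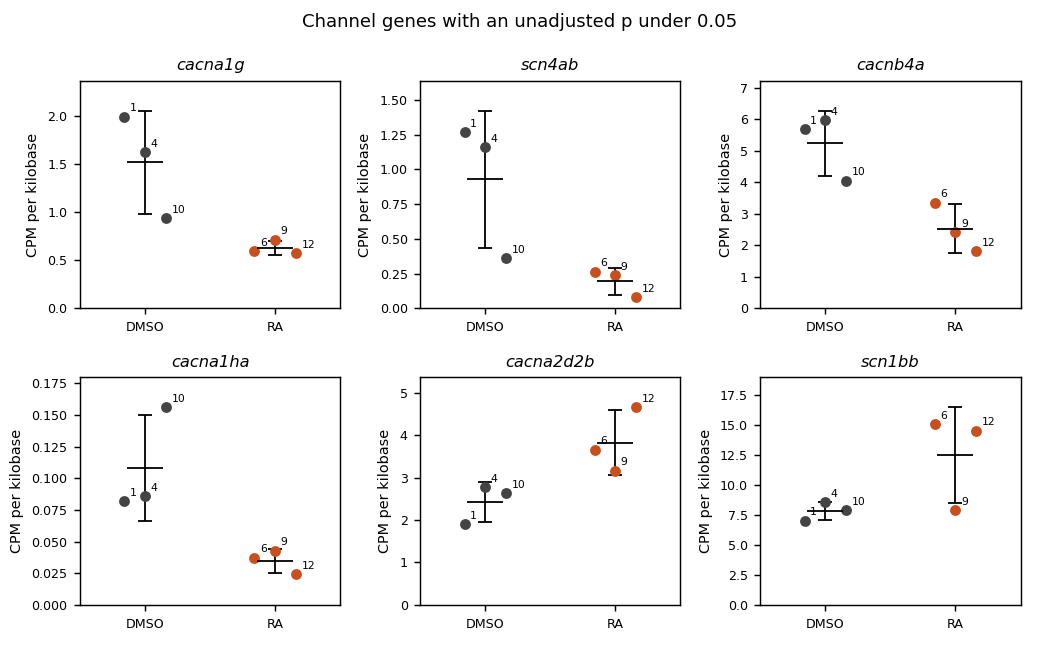
The 6 channel genes with an unadjusted p-value under 0.05, in CPM per kilobase, with a point per library labelled by its replicate number, a line at the mean and bars of 1 SD (n = 3). In cacna1g, scn4ab, cacnb4a and cacna1ha all RA libraries lie below DMSO, in cacna2d2b all lie above, and in scn1bb RA replicate 9 lies among the DMSO libraries.

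Many channel genes of the zebrafish exist as duplicates named a and b, and 11 such pairs had both genes among the 47. The a gene held the larger share of the summed CPM per kilobase in DMSO in 7 of them. For cacna2d2a and cacna2d2b this order reversed in mean CPM not divided by length. Most uneven were scn1laa, with 0.819% ± 0.519 of its pair with scn1lab, cacnb2a with 97.0% ± 0.469 and cacnb4a with 7.08% ± 1.74 of its pair with cacnb4b. The share of a did not overlap between the groups in 4 of the 11 pairs (36.4%), against 18.6% of the 2223 pairs of genes named a and b with at least 30 counts each. The exact permutation test of a single share, which cannot go below 0.1 with 3 against 3 libraries, was not run.

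The first of the 4 was the pair of gamma genes cacng8a and cacng8b, which escort AMPA receptors. The share of cacng8a was 24.3%, 27.4% and 28.2% in DMSO and 41.4%, 42.4% and 43.4% in RA. Gene cacng8b lay lower in RA, opposite to its duplicate, at 2.35, 1.97 and 1.93 CPM per kilobase in DMSO and 1.67, 1.38 and 1.72 in RA, a log2 fold change of -0.39 (SE 0.25). In the P/Q pair, cacna1aa held 81.2%, 80.0% and 82.8% in DMSO and 87.7%, 85.1% and 85.9% in RA. In the N type pair, cacna1ba held 65.9%, 62.2% and 59.3% in DMSO and 70.3%, 66.6% and 71.3% in RA. In both presynaptic pairs the less abundant duplicate was the gene whose groups did not overlap. Gene cacna1bb had 1.93, 1.68 and 2.06 CPM per kilobase in DMSO and 1.43, 1.45 and 1.38 in RA, a log2 fold change of -0.41 (SE 0.19, adjusted edgeR p-value 0.533). Gene cacna1ab had 0.980, 0.871 and 0.673 in DMSO and 0.621, 0.661 and 0.650 in RA, a log2 fold change of -0.39 (SE 0.25). The fourth pair, cacng6a and cacng6b, rests on few counts, with 0, 7 and 0 of cacng6a in DMSO and 11, 20 and 7 in RA, and cacng6a has exons that overlap si:dkey-14o18.2 on the opposite strand.

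**Figure D5:**
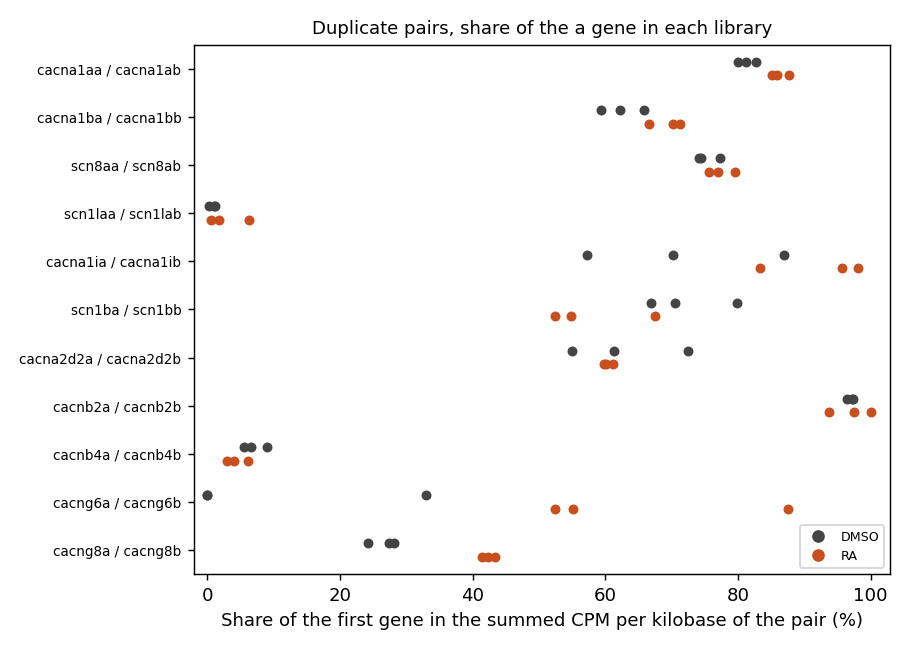
Share of the a gene in the summed CPM per kilobase of each of 11 duplicate pairs, in percent, with a point per library. For cacng8a the 3 RA libraries sit between 41.4% and 43.4%, above the DMSO libraries at 24.3% to 28.2%.

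Partner genes of the channels were taken from 5 lists with 128 entries, of which 116 matched a gene and 102 were tested. In edgeR none reached an adjusted p under 0.05 (0.799% of all tested genes did), while 16 had an unadjusted p-value under 0.05 (15.7%, against 10.2% of all tested genes) and DESeq2 called 10, beside 3.86% of all genes. The log2 fold change was below 0 in 68 of 102 (66.7%, against 47.4% of all tested genes), with a median of -0.12. Groups did not overlap for 15 genes lower and 3 higher in RA (14.7% and 2.94%, against 7.7% and 7.78%). The sodium channel list had 16 of 22 below 0 with a median of -0.28. It joins genes that bind or anchor these channels with nalcn, unc80 and nalf1a, which belong to a separate sodium leak channel. Genes that bind calcium channels had 13 of 19 below 0 with a median of -0.20. Those of calcium stores, pumps and exchangers had 21 of 30 with a median of -0.17. Those of calcium sensors, kinases and buffers had 13 of 19 with a median of -0.05. Those of the sodium-potassium pump had 5 of 12 with a median of 0.05.

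The most abundant partners per kilobase were calm3b and calm2b, which encode calmodulin, the calcium sensor bound to both kinds of channel. They lay at 936.2 and 609.8 CPM per kilobase in DMSO and 924.5 and 616.3 in RA. Next to the sodium channel, the adhesion gene cntn1a was at 37.4 in DMSO and 44.1 in RA and the ankyrin gene ank2b at 32.3 and 27.6. The calcineurin subunit ppp3r1b was at 85.0 and 70.9 and the kinase gene camk2d2 at 33.2 and 30.7. The calcium pump gene atp2b3a was at 29.0 in DMSO and 18.4 in RA, a log2 fold change of -0.66 (SE 0.18, adjusted edgeR p-value 0.185). The pump subunit genes atp1b3a and atp1b2a were at 115.8 and 98.4 in DMSO and 75.3 and 103.4 in RA. The lowest adjusted p-value of the partners was that of atp1b3a, at a log2 fold change of -0.62 (SE 0.12, adjusted edgeR p-value 0.0780). It passed with no filter on low counts, at 0.0459, and among genes of at least 10 CPM, at 0.0486. The genes DESeq2 called, named after their values were seen, were fgf14, cntn2, rem1, calb2a, atp2b3a and atp1b3a among the lower and atp1a3b, atp1a2a, s100b and mcu among the higher. Of these, fgf14 encodes a factor that binds the sodium channel pore and rem1 a small GTPase that inhibits calcium channels. Their DESeq2 log2 fold changes were -1.33 (SE 0.38, adjusted p-value 0.0155) and -0.72 (SE 0.21, adjusted p-value 0.0191).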

How the data were processed

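The deposited tables hold raw fragment counts per gene and the exon length in bases. Per the file headers, the authors made these counts with featureCounts 1.6.0 on Ensembl release 95 of GRCz11, for read pairs and ignoring strand. The submitters' processing notes name STAR 2.5.2a, bcl2fastq 1.8.4 and Subread 1.5.0. Per the labels' protocols, RNA was amplified with SMART-Seq v4 and sequenced after Nextera XT preparation. No option to count fragments in several genes or places appears in the headers.

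Symbols came from a table of identifiers, and capital symbols were replaced by a RefSeq zebrafish symbol (assembly GRCz12tu, names alone) (the same name, or with a or b added) if exactly 1 such name lay on that chromosome and was not in use. This renamed 25 of the 47 channel genes, and 6 kept capitals. The members and lists were chosen with earlier results of these data known.

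Genes were filtered by filterByExpr (17270 kept), scaled by TMM and tested with edgeR 4.0.16 in R 4.3.3. Intervals use SE as the fold change over the square root of F. Members were given with all values if past 0.05, if among the 3 with the highest DMSO level of a class, or if among the 6 higher and 6 lower tested genes with the largest log2 fold change whose groups did not overlap. Of the partners, those past 0.05 and the 2 most abundant per list were named (1 of these is not reported here), and others are said to be chosen after seeing values. Between libraries of a group, chi-square divided by its degrees of freedom was 15.9 to 71.2, above counting noise for every pair. Repeat preparations of 1 pool would not show in this check. Alternatives were DESeq2 1.42.0, limma-voom 3.58.1, other scalings and filters, a robust fit and leaving out each library. The edgeR script was tested on simulated data.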

Additional observations from a re-analysis of the deposited data

How the results depend on the processing

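No paired analysis was made, because the labels do not state whether DMSO and RA libraries were paired. The count of all genes past 0.05 was 138, and 699 with DESeq2, 276 with no filter on low counts and 9 to 325 with a library left out (9 without DMSO replicate 4, 325 without RA replicate 9). For the channel genes it was 0 in edgeR and limma-voom, also with each library left out (0 to 0), and 3 with DESeq2. For the partner genes it was 0, and 10 with DESeq2, 1 with no filter, 1 at a mean of at least 10 CPM and 0 to 2 with a library left out (atp2b1b and atp1a3b, without RA replicate 9). Duplicate pairs without overlap numbered 4, and 5 to 7 with a library left out (7 without DMSO replicate 10 or RA replicate 12), which can only keep or raise this count and so says nothing of its stability. Channel genes below 0 numbered 21 of 38 to 28 of 41 with a library left out, and 11 of 18 at a mean of at least 10 CPM. Of 28 named and tested channel genes, 21 kept their sign in all alternatives. The log2 fold change crossed 0 with single libraries left out for cacna2d3 (-0.43 to 0.11), CACNG2 (-0.56 to 0.0094), cacng2a (-0.012 to 0.27), cacna1da (-0.20 to 0.17), cacna1c (-0.70 to 0.066), cacna1ba (-0.058 to 0.16) and cacna1ia (-0.41 to 0.80), and for cacna1ia also with limma-voom (0.22) and library size scaling (0.0097). The cause was not tested. Genes at a few counts per library are limited by depth, since a floor of 3 counts is 0.128 to 0.188 CPM.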

Other observations

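Among the channel genes too low to be tested, several took most of their counts from RA replicate 9. These genes were chosen after their values were seen. The alpha2delta gene listed as CACNA2D4 had 24 counts there and 0, 9, 1, 0 and 0 in DMSO replicates 1, 4 and 10 and RA replicates 6 and 12. Gene cacna2d3a had 26 there and 10, 0, 3, 0 and 0 in the others, and the sodium pore gene scn1laa had 21 there and 1, 6, 3, 5 and 1. The gamma gene cacng5b had 16, 14 and 9 counts in DMSO and 4, 1 and 1 in RA, without overlap. Fitted with no filter on low counts, it did not pass (log2 fold change -2.42, edgeR adjusted p-value 0.452), nor did cacna1ib (-2.13, edgeR adjusted p-value 0.575).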
